A study of Drosophila melanogaster with 2 samples.

Results

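The ecdysone genes followed here, 10 in number, were read in single nuclei of Drosophila melanogaster embryos: the receptor genes EcR and usp, the nuclear receptor genes ftz-f1, Hr3 and Hr39, the response genes Eip74EF, Eip75B, Eip93F and br, and the inactivating enzyme gene Cyp18a1. They were taken by symbol, and all 10 were among the 17039 genes of the table. Embryos were collected over 0 to 24 h, with no strain, treatment or second condition named in the labels, so development within that window is not resolved. Their nuclei were crosslinked, cut with restriction enzymes, ligated and barcoded in droplets (scAIR, an assay of RNA, open chromatin and chromatin contacts). The data are 1 RNA library of 318 nuclei with 2233526 unique molecular identifiers (UMIs), a median of 2969 a nucleus (range 279 to 123309). The second library, of open chromatin and contacts, was not analysed here.

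Ecdysteroids are the moulting hormones of insects. The active form, 20-hydroxyecdysone, binds a heterodimer of EcR and its RXR-like partner Usp, which then switches on a small set of early genes that encode transcription factors. These drive or delay later genes: Hr3 activates ftz-f1, and E75, the product of Eip75B, binds Hr3 and holds it back. Cyp18a1 hydroxylates the hormone and so inactivates it. In the fly embryo a rise of ecdysteroids in mid-embryogenesis is needed for germ band retraction, head involution and the laying down of the larval cuticle.

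The genes fell into an order of abundance that ran from ftz-f1 to Eip93F. The competence factor ftz-f1, which also serves as the DNA-binding partner of Ftz in early embryos, had 1400 UMIs, or 627 UMIs per 1000000 of the library (CPM; exact Poisson 95% interval 594 to 661). Eip75B followed with 905 UMIs (405 CPM, 379 to 432) and EcR with 556 UMIs (249 CPM, 229 to 271). Cyp18a1 had 366 UMIs (164 CPM), br, a family of zinc-finger factors from an early gene, had 249 (111 CPM), and Hr39, an orphan receptor gene related to ftz-f1, had 239 (107 CPM). The intervals of br and Hr39 overlapped. Eip74EF, which encodes ETS-domain factors, and Hr3 had 141 and 140 UMIs (63.1 and 62.7 CPM), usp had 95 (42.5 CPM) and Eip93F, a later-acting regulator of cell death and of adult fate in metamorphosis, had 66 (29.5 CPM). Transcript lengths were not used, so this is an order of UMIs and not of transcripts. With 1 library there is no replicate check, no test was made, and all intervals cover counting error only.

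At least 1 of the 10 genes was found in 291 of the 318 nuclei, and the 27 others were shallow, with a median of 836 UMIs. Eip75B had a UMI in 195 nuclei, EcR in 181 and ftz-f1 in 173, while usp was seen in 56 and Eip93F in 20. EcR and usp were found together in 46 nuclei, EcR without usp in 135, usp without EcR in 10 and neither in 127. Detection rose with depth: EcR was found in 27.4% of the shallowest nuclei (median 1047 UMIs, the lowest of 3 groups of equal size) and in 86.8% of the deepest group (median 10723.5 UMIs). Its CPM did not rise with depth, at 324 in the former and 235 in the latter.

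Depth was therefore matched by drawing 1000 UMIs at random from each of the 270 nuclei that had as many, which left out 48. At this depth ftz-f1 was found in 32.6% of nuclei (exact Clopper-Pearson 95% interval 27.0% to 38.5%), Eip75B in 31.1% and EcR in 20.4%. Cyp18a1 and br were each found in 10.0%, and the other 5 genes in 1.85% (Eip93F) to 8.89% (Hr39). Detection of marker genes outside their own class gives a background to such shares, and its source was not tested. At this depth the salivary gland gene CG13159 was found in 28.8% of nuclei outside the salivary gland-like class. The muscle myosin gene Mhc was found in 25.9% of nuclei outside the muscle-like class. Over all nuclei outside those classes, also those under 1000 UMIs, the median raw depth was 3025 and 2898. Both genes were at 100% in their own class. The shares of the 10 genes lie near or under those shares, but CG13159 and Mhc are far more abundant (3956 and 1636 CPM), so shares are read below beside CPM and between groups of nuclei only. The lipoprotein gene apolpp, used below, was found in 64.6% of nuclei outside its own cluster.

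UMIs of several genes were piled up in few nuclei. For Cyp18a1, 3 nuclei held 38.8% of all UMIs, with 53, 48 and 41, and 35 of the 79 nuclei with the gene had 1 UMI. Of the 66 Eip93F UMIs, 30 lay in a single nucleus of 4695 UMIs, and 8 in the next. The highest counts of EcR (66), ftz-f1 (139), Hr3 (10), Hr39 (20), Eip74EF (12) and Eip75B (38) all came from the deepest nucleus, which held 123309 UMIs or 5.52% of the library. That nucleus was called a doublet by Scrublet, lay in the muscle-like class with 618 Mhc UMIs, and held all 10 genes and 367 apolpp UMIs. Scrublet called 8 nuclei in all, which were kept. Without the deepest nucleus the CPM of EcR was 232 and that of ftz-f1 598.

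Nuclei were grouped by clustering without the 10 genes, Cyp304a1 and most of the pathway genes described below, so these genes did not set the classes directly. Genes that vary with them were not left out, so the grouping can still carry part of their differences between classes. Pathway genes that are also cell type markers (phm, spok, nvd, dib, sad, jhamt and kni) stayed in, and their differences can be made by it. The classes, named by markers, were neuron-like (65 nuclei in 2 clusters), somatic muscle-like (34), cuticle-forming epidermis-like (82 in 2 clusters), midgut-like (29) and salivary gland-like (7). Another 38 nuclei were led by oocyte transcripts such as dhd, yl and osk, and 33 nuclei, cluster 3, met no marker list. The remaining 30 nuclei were higher in 6 fat body markers, led by apolpp (36354 against 1726 CPM), but also in the ring gland markers phm, spok and nvd. They are called the apolpp-rich cluster and given no cell type name.

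A class was called different for a gene at 2-fold in CPM + 10 against all other nuclei. Of 80 pairs of a class and a gene, 9 were at least 2-fold higher and 21 at least 2-fold lower. The apolpp-rich cluster held 5 of the 9, where 7.74% of all 7983 genes with at least 20 UMIs were called higher, and it had 1 gene lower (background 23.4%). The neuron-like class had 2 higher and 1 lower (background 8.23% and 8.53%). The salivary gland-like class had 1 higher and 4 lower (5.12% and 45.4%), and the oocyte-transcript cluster 1 and 5 (10% and 15.6%). No gene was called higher in the muscle-like (4.37%), epidermis-like (3.24%) and midgut-like (8.39%) classes or in cluster 3 (1.25%). These had 1, 2, 5 and 2 genes lower, with 7.82%, 5.54%, 30.4% and 3.28% of all genes.

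**Figure D1:**
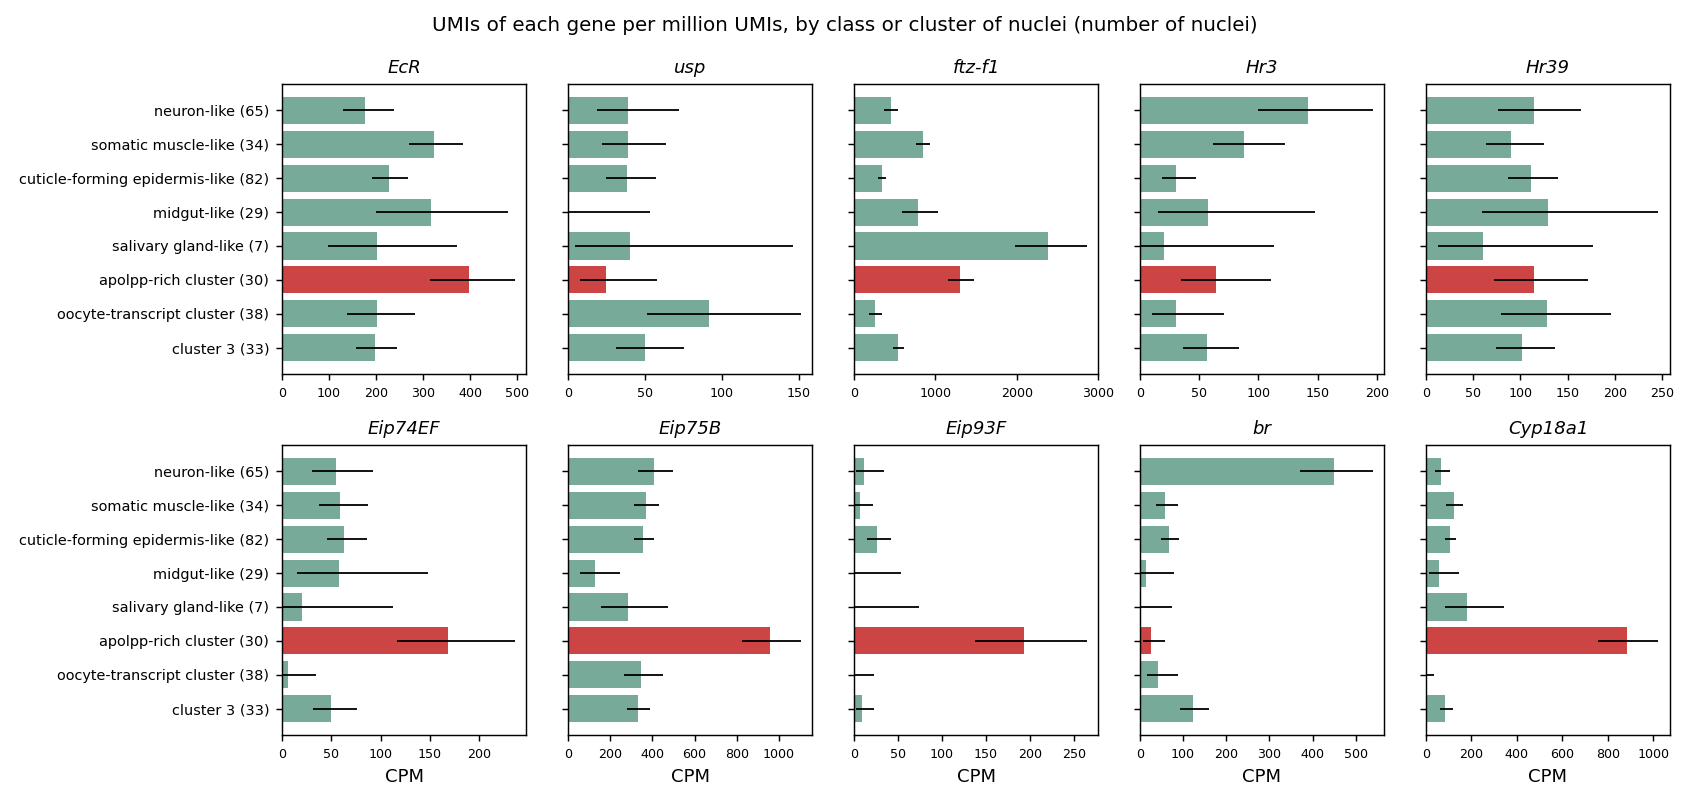
Bars give the CPM of each of the 10 genes in each class or cluster of nuclei, with exact Poisson 95% intervals as lines and the number of nuclei in brackets; each panel has its own scale from 0. The apolpp-rich cluster, in red, stands highest for Cyp18a1 (883 CPM), Eip75B (957 CPM), Eip74EF (169 CPM) and Eip93F (193 CPM), and the neuron-like class for br (449 CPM) and Hr3 (142 CPM).

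Neither receptor gene marked a class. EcR was called in no class and lay between 177 CPM in neuron-like and 397 CPM in apolpp-rich nuclei, 1.69-fold above all other nuclei there (conditional binomial 95% interval 1.32 to 2.15). In the muscle-like class it was at 323 CPM, and at 232 CPM without the deepest nucleus. For usp most classes lay between 24.8 and 49.96 CPM. The midgut-like class had 0 of the 95 UMIs (upper bound 53.2 CPM), and the oocyte-transcript cluster was at 91.7 CPM, 2.37-fold above the other nuclei. That value rested on 1 nucleus with 11 of its 15 UMIs, without which the fold was 0.99.

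Among the nuclear receptor genes, ftz-f1 was found in every class. It was lowest in the oocyte-transcript cluster (257 CPM) and the epidermis-like class (343 CPM), intermediate in neuron-like nuclei (453 CPM) and cluster 3 (543 CPM), and higher in midgut-like (793 CPM), muscle-like (848 CPM) and apolpp-rich nuclei (1305 CPM). The intervals of the midgut-like and muscle-like classes overlapped. The highest value, 2387 CPM in the salivary gland-like class, came from 1 nucleus with 112 of its 118 UMIs. Without that nucleus the class stood at 453 CPM, 0.77 times the other nuclei. In the apolpp-rich cluster the fold was 2.33 (2.03 to 2.67), and it was 2.94 without the deepest nucleus of that cluster and the deepest of the other nuclei. Without the 3 nuclei with the most Cyp18a1, all of that cluster, the log2 difference in CPM + 10 fell from 1.21 to 0.31 and the call ended.

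Hr3 was highest in neuron-like nuclei, with 36 UMIs at 142 CPM against 52.5 CPM elsewhere, a 2.70-fold difference (1.79 to 3.97). Of its 36 UMIs, 31 lay in the larger neuron-like cluster of 46 nuclei (167 CPM) and 5 in the other (72.7 CPM). With every nucleus weighed the same the log2 difference fell to 0.68, under the 2-fold line. It was 0.41 times the level of all others in the epidermis-like class, at 30.9 CPM, and had 5 UMIs in the oocyte-transcript cluster and 1 in the salivary gland-like class. For Hr39 no class was called, and its levels ran from 60.7 CPM (salivary gland-like, 3 UMIs) to 130 CPM (midgut-like, 9 UMIs), with overlapping intervals throughout.

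Of the response genes, br was highest in neuron-like nuclei. It reached 449 CPM there against 68.2 CPM elsewhere, 6.58-fold (5.08 to 8.50), in both neuron-like clusters (611 and 388 CPM) and in 28 of 65 nuclei. The nucleus with the most br held 24 UMIs, and without it the fold was 6.66. At 1000 UMIs, 31.9% of neuron-like nuclei had br, against 4.05% of epidermis-like nuclei, 3.23% of muscle-like nuclei and 0 of 19 midgut-like nuclei. A count of 0 in 19 nuclei allows a share of up to 15.8% by a floor of 3 counts, and of up to 17.6% by the exact interval. Cluster 3 was next in CPM, at 123. At 1000 UMIs br was found in 15.6% of its nuclei (5.28% to 32.8%), an interval that overlaps that of neuron-like nuclei (19.1% to 47.1%).

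Eip75B was found in every class, between 130 CPM in midgut-like nuclei and 409 CPM in neuron-like nuclei, and stood apart in the apolpp-rich cluster at 957 CPM, 2.73-fold above the others (2.32 to 3.21). At 1000 UMIs a nucleus the log2 difference there was 0.92, under the 2-fold line, against 1.42 from all UMIs. Eip74EF had 34 UMIs and 169 CPM in the apolpp-rich cluster, 3.20-fold above all others (2.11 to 4.75), and 1 UMI in the oocyte-transcript cluster. Eip93F was 14.6-fold higher in the apolpp-rich cluster (8.69 to 24.7), with 39 of the 66 UMIs. Without the nucleus with 30 UMIs its fold was 3.44. Outside the cluster it had 27 UMIs, of which 17 were in epidermis-like nuclei (26.3 CPM).

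For Cyp18a1, the apolpp-rich cluster held 178 of its 366 UMIs, at 883 CPM against 92.5 CPM elsewhere, a 9.54-fold difference (7.73 to 11.8). Without the 3 nuclei with the most Cyp18a1 the log2 difference was 1.02 instead of 3.12. Other classes ran from 6.11 CPM in the oocyte-transcript cluster (1 UMI) to 182 CPM in the salivary gland-like class (9 UMIs). Within the epidermis-like class the cluster marked by cuticle protein genes (Lcp65Ac, Ccp84Ae, TwdlL) had 156 CPM and the cluster marked by Osiris genes (Osi7, Osi9, Osi18) 54.3 CPM, with intervals that did not overlap (116 to 204 and 31.6 to 86.9).

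Cyp304a1, another cytochrome P450 gene, had 370 UMIs in 58 nuclei, of which 27 also held Cyp18a1. Its level in the apolpp-rich cluster was 1414 CPM against 41.8 CPM elsewhere, 33.8-fold (26.4 to 43.6). At 1000 UMIs it was found in 22 nuclei, 14 of them apolpp-rich, and not in 248. The median raw depth was 3128.5 UMIs in the former and 3844 in the latter.

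ftz-f1 and Cyp18a1 were higher in nuclei with Cyp304a1 at matched depth. ftz-f1 had 65 UMIs in the 22 nuclei with Cyp304a1 (2955 CPM) and 122 in the 248 without (492 CPM), a 6.01-fold difference (4.37 to 8.18). Cyp18a1 had 24 against 28 UMIs (1091 and 113 CPM), a 9.66-fold difference (5.36 to 17.3). These were 2 of 10 genes at least 2-fold higher, where 13.5% of all 7983 genes passed, and 11% of the 2514 genes with at least 20 drawn UMIs. Among those 2514 genes Cyp18a1 ranked 15 and ftz-f1 44 by the log2 difference in CPM + 10. Both stayed at least 2-fold higher in all 16 other settings tried, with log2 differences of 1.02 to 5.74 for ftz-f1 and 1.04 to 4.45 for Cyp18a1. The 1.04 came from nuclei outside the apolpp-rich cluster and rested on 2 UMIs of Cyp18a1 beside Cyp304a1. Its interval of the ratio included 1 (0.25 to 8.55).

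By share, ftz-f1 was found in 17 of the 22 nuclei with Cyp304a1 (77.3%, 54.6% to 92.2%) and in 28.6% of those without (23.1% to 34.7%). A single draw carries its own error at these counts. Averaged exactly over all draws of 1000 UMIs, the shares were 58.6% and 28.1% for ftz-f1 and 38.7% and 7.33% for Cyp18a1. In the draw both shares were more than 2-fold higher with Cyp304a1, as were those of 7.32% of 1654 other genes found in at least 10% of nuclei. For EcR the averaged shares were 45.6% and 20.9%, where the draw gave 27.3% and 19.8%. The averaged ratio of EcR was 2.18, beside 2.08 for ftz-f1 and 5.29 for Cyp18a1. For Eip75B the averaged shares were 43.7% and 31.1%, a ratio of 1.40, where the draw gave 31.8% and 31.05%. Eip93F had an averaged ratio of 2.09 on shares of 3.52% and 1.68%. With 2000 UMIs a nucleus EcR and Eip75B were also called higher, with log2 differences of 1.52 and 1.02.

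usp, Eip74EF, Eip93F and br had no UMI in the 22 nuclei, and are the 4 genes called lower, among 44.8% of all genes called lower. A count of 0 in 22 nuclei allows a share of up to 13.6% by a floor of 3 counts, and of up to 15.4% by the exact interval. For br the averaged shares were 2.74% with and 10.2% without Cyp304a1. With another random draw 5 genes were called higher, ftz-f1, Cyp18a1, Hr3, Eip74EF and Eip93F, so the calls of the scarce genes rest on the draw.

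**Figure D2:**
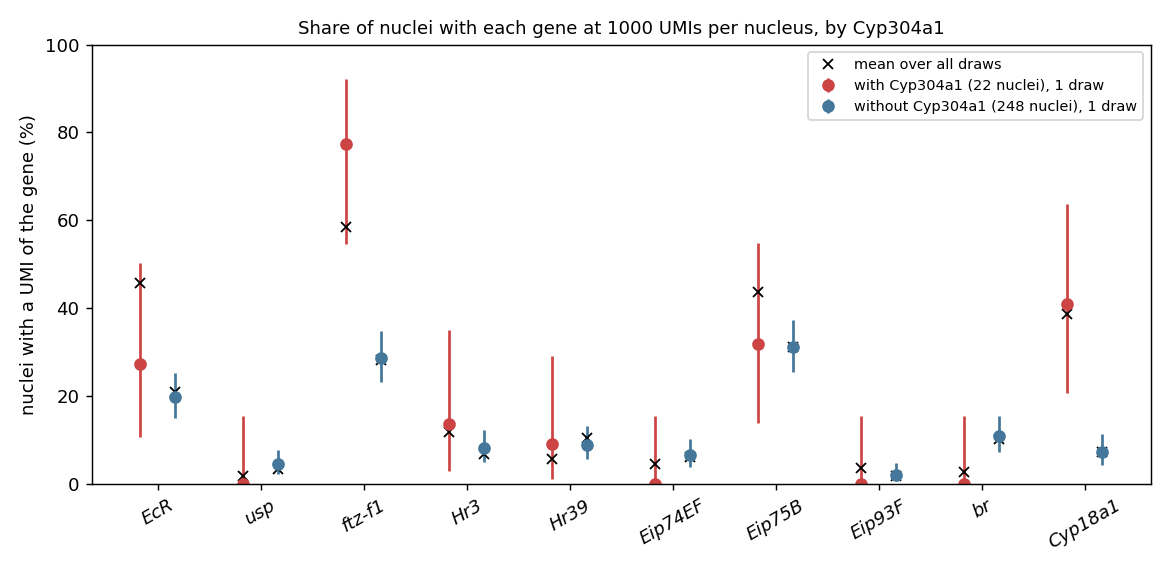
Points give the share of nuclei (percent) with at least 1 UMI of each gene at 1000 UMIs, in the 22 nuclei with Cyp304a1 (red) and the 248 without (blue), with exact Clopper-Pearson 95% intervals; crosses give the mean over all draws. The intervals lie apart for ftz-f1 (77.3% and 28.6%) and Cyp18a1 (40.9% and 7.26%).

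The difference in shares was seen within the apolpp-rich cluster. There ftz-f1 was found in 12 of 14 nuclei with Cyp304a1 and in 1 of 16 without, and Cyp18a1 in 7 of 14 and 1 of 16. Averaged over all draws the shares were 75.8% and 9.97% for ftz-f1 and 53.6% and 1.95% for Cyp18a1. The nuclei without Cyp304a1 were the deeper ones before the draw (median 5405.5 against 3067.5 UMIs). In all other nuclei the draw gave ftz-f1 in 5 of 8 nuclei with Cyp304a1 and in 30.2% of 232 without, but the average over draws was 25.6% and 29.4%. For Cyp18a1 the averaged shares there were 10.2% and 7.69%. In drawn CPM both genes were still 2-fold higher there, with log2 differences of 1.38 and 1.04 on 8 nuclei. For Cyp18a1 the interval of the ratio included 1. The difference between the cluster and the other nuclei was not tested, as there is 1 library.

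Nucleus by nucleus, Cyp18a1 and Cyp304a1 were high together. The 3 nuclei with the most Cyp18a1 held 53, 48 and 41 UMIs of it and 53, 39 and 49 of Cyp304a1. The deepest nucleus of the library held 34 and 32. Among the 10 nuclei with at least 10 Cyp304a1 UMIs, however, Cyp18a1 ran from 0 to 53, and an apolpp-rich nucleus with 26 Cyp304a1 UMIs had none. Outside the apolpp-rich cluster and the deepest nucleus the highest Cyp18a1 count was 15, in a nucleus with no Cyp304a1.

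**Figure D3:**
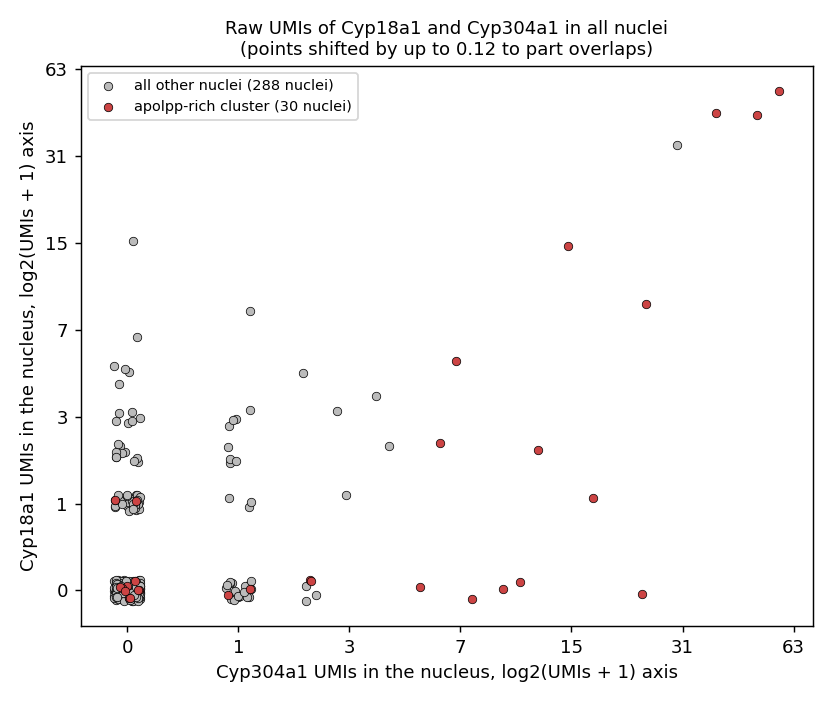
Each point is 1 of the 318 nuclei, with its raw Cyp304a1 UMIs on the x axis and its raw Cyp18a1 UMIs on the y axis, both on log2(UMIs + 1) axes; red points are the 30 apolpp-rich nuclei. The 3 highest nuclei (53, 48 and 41 Cyp18a1 UMIs) are apolpp-rich and lie near equal counts, while other red points with up to 26 Cyp304a1 UMIs lie at 0 on the y axis.

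The 30 apolpp-rich nuclei were not alike. When the clustering was made finer (resolution 1.5 in place of 1), still without these genes, they parted into a group of 14 and a group of 16 nuclei. This is not the division by Cyp304a1 given above, though close to it: in the draw 13 of these 14 and 1 of these 16 held Cyp304a1. Scrublet called 1 of the 14 and 2 of the 16. The 14 held 2.61% of the library's UMIs but 48.4% of those of Cyp18a1, 72.2% of those of Cyp304a1 and 17.6% of those of ftz-f1. The marker rule gave the 14 the ring gland list, by phm (6 UMIs), spok (5) and nvd (6), all genes of ecdysteroid synthesis. The synthesis genes dib and sad had no UMI in them and apolpp was at 43141 CPM, so no cell type name is used. By the marker rule the 16 nuclei kept the fat body list. Apoltp (405 against 17.2 CPM), Mtp (558 against 172 CPM) and srp (565 against 223 CPM) were higher in the 16. From summed UMIs apolpp was 1.28-fold higher in the 14 (43141 against 33592 CPM). Its median CPM over nuclei went the other way, at 29507 in the 14 and 43894 in the 16. For Tps1 and Lsd-1 the interval of the ratio included 1. The 16 were also higher in fkh, a salivary gland marker (1891 against 686 CPM), and in sisA (244 against 34.3 CPM), which was chosen after its values were seen. These genes were not left out of the clustering, so their differences can be made by it. The division was picked out after its values were seen and is described without a test.

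ftz-f1, Cyp18a1 and EcR were higher in the 14 nuclei. ftz-f1 was found in all 14, with 1 to 71 UMIs (median 10), and in 6 of the 16, with 0 to 9 (median 0). The ranges of raw counts overlap between 1 and 9, and the 16 were deeper (median 5405.5 against 3206.5 UMIs). In CPM the groups stood at 4220 (3709 to 4781) and 119 (69.1 to 190), a 35.6-fold difference (21.8 to 62.0). Without the nucleus with the most ftz-f1 the fold was 30.1.

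Cyp18a1 had 177 UMIs in 10 of the 14 nuclei, with a median of 2 and a highest count of 53, and 1 UMI in the 16. The 14 stood at 3036 CPM and the 16 at 6.98 (0.18 to 38.9), and the ratio, on a single UMI, was 435 with a counting interval from 77.1 to 17278. Of the 6 nuclei of the library with at least 10 Cyp18a1 UMIs, 4 were among the 14. Outside the 14 the gene was still found in 69 nuclei, at 86.9 CPM.

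EcR was at 703 CPM (505 to 954) in the 14 and 272 CPM (194 to 372) in the 16, a 2.58-fold difference (1.63 to 4.11). It was found in 13 of 14 nuclei with 0 to 9 UMIs and in 14 of 16 with 0 to 6, so the nuclei of the groups overlap widely. All nuclei outside the 14 stood at 237 CPM, inside the interval of the 16. For Eip93F the 14 were 21.5-fold higher, with 30 of their 35 UMIs in 1 nucleus, and 3.34-fold higher without it. That nucleus had no Cyp304a1 UMI and the lowest apolpp count of the 14, 16 UMIs. usp had 2 and 3 UMIs in the groups, br 1 and 4 and Hr3 3 and 10, too few for an order.

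The early gene Eip74EF, Hr39 and Eip75B leaned to the 16 nuclei. Eip74EF had 31 UMIs in 10 of the 16 and 3 UMIs in 2 of the 14, at 216 CPM (147 to 307) and 51.5 CPM (10.6 to 150), a 4.20-fold difference (1.31 to 21.5). Hr39 had 20 and 3 UMIs (140 and 51.5 CPM), with an interval of the ratio that includes 1 (0.80 to 14.3). Eip75B was at 1054 CPM in the 16 and 720 CPM in the 14, 1.46-fold (1.03 to 2.11), under the 2-fold line. In all, 4 of the 10 genes were at least 2-fold higher in the 14 (background 13.5%), EcR, ftz-f1, Eip93F and Cyp18a1, and 2 lower, Eip74EF and Hr39 (background 24.4%). The median log2 difference was 0.07 over the 10 genes and -0.19 over all 7983.

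**Figure D4:**
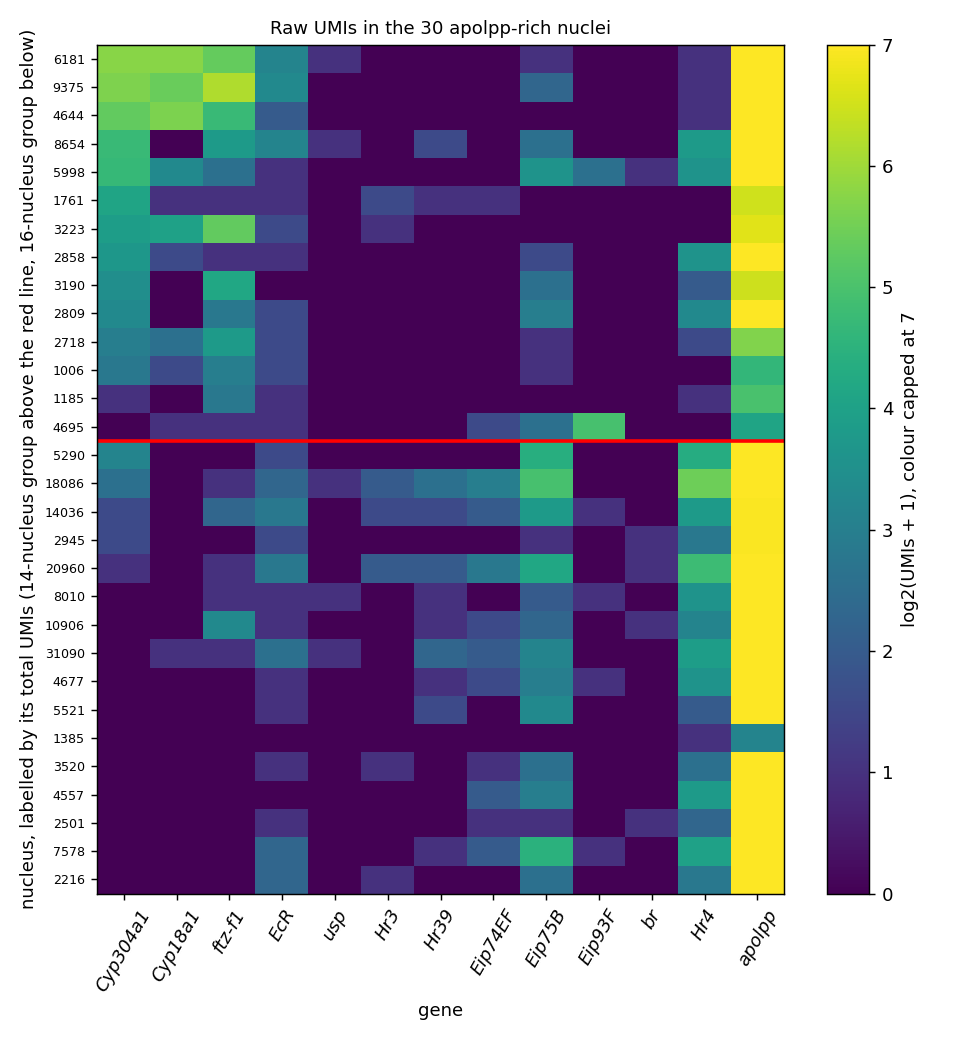
Colour gives log2(UMIs + 1) of each gene (columns) in each of the 30 apolpp-rich nuclei (rows, labelled by total UMIs), with the group of 14 above the red line and the group of 16 below, each ordered by Cyp304a1. ftz-f1 is above 0 in every row of the 14 and in 6 of the 16, Cyp18a1 in 10 of the 14 and 1 of the 16, and Eip74EF in 2 of the 14 and 10 of the 16.

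Of the 78 genes of the pathway lists, 15 (19.2%) were at least 2-fold higher in the 14 and 22 (28.2%) in the 16, beside 13.5% and 24.4% of all genes. The genes named next were chosen after their values were seen. In the 14, phm was 14.7-fold (1.79 to 678), spok 12.3-fold (1.38 to 581) and nvd 4.91-fold higher (1.05 to 30.4), each on 5 or 6 UMIs, and these are among the markers the grouping used. In the other direction Eip78C, an early ecdysone-inducible nuclear receptor gene, was 2.18-fold higher in the 16 (1.29 to 3.90), at 635 against 292 CPM. E23, an ecdysone-inducible ABC transporter gene whose product lowers the response to the hormone, was 11.6-fold higher (3.07 to 98.1), at 398 CPM on 57 UMIs against 34.3 CPM on 2. vri, a bZIP factor gene, was 2.44-fold higher in the 16 (1.02 to 7.09). Hr4, a nuclear receptor gene that represses early genes and takes part in the induction of ftz-f1, was 1.53-fold higher (1.12 to 2.11) and was found in 16 of the 16 nuclei and 10 of the 14. ImpL2 and Atet leaned the same way under the 2-fold line (1.81- and 1.94-fold). For Hnf4, Npc1a and tai the interval of the ratio included 1.

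**Figure D5:**
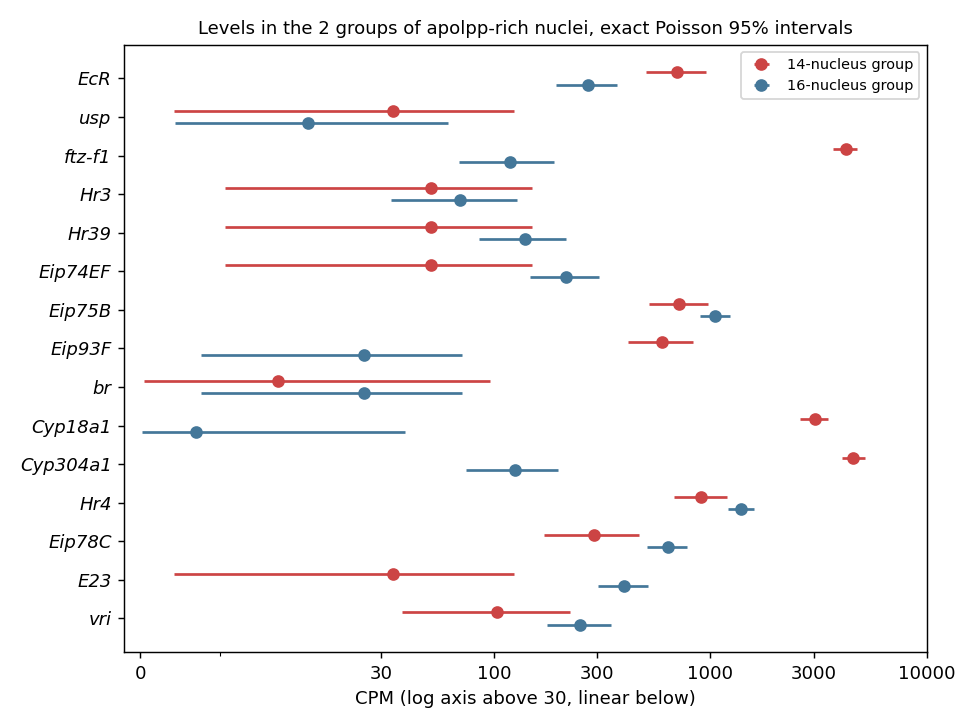
Points give the CPM of the 10 genes, Cyp304a1 and 4 other pathway genes in the 14-nucleus group (red) and the 16-nucleus group (blue), with exact Poisson 95% intervals, on an axis that is logarithmic above 30 CPM. ftz-f1 (4220 and 119 CPM) and Cyp18a1 (3036 and 6.98 CPM) lie far to the right in red, and Eip74EF (51.5 and 216 CPM), Eip78C and E23 lie to the right in blue.

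Among the 30 nuclei at 1000 UMIs, Hr4 was found in 4 of 13 nuclei with ftz-f1 and 12 of 17 without, and Eip75B in 4 of 13 and 9 of 17. All 13 nuclei with ftz-f1 in the draw were among the 14, so this division nearly repeats that of the 14 and 16 nuclei. Averaged over all draws, Hr4 was found in 45.2% and 74.5% of them and Eip75B in 42.4% and 61.7%. In the other nuclei the averaged shares were 28.9% and 39.6% for Hr4 and 26.4% and 30.7% for Eip75B. The order of these averaged shares was the same in both sets, and the size of the difference between sets was not tested. EcR went the other way in the apolpp-rich nuclei (53.4% with ftz-f1, 29.8% without) and not in the others (16.98% and 22.4%). Single classes of the other nuclei differed in order in the draw. Hr4 was more frequent with ftz-f1 in neuron-like nuclei (35.7% against 21.2%) and cluster 3 (40% against 18.2%). It was less frequent in epidermis-like (9.09% against 25%) and muscle-like nuclei (50% against 68.4%), and all these intervals overlapped. Eip75B was more frequent with ftz-f1 in neuron-like nuclei (28.6% against 18.2%) and less in muscle-like nuclei (25% against 36.8%).

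Over all 270 nuclei no pair of the genes stood out in both directions. Of the 10 pairs among the 5 genes found in at least 10% of nuclei, none was 2-fold more frequent in both directions in the draw or averaged over all draws. The closest was ftz-f1 with Cyp18a1: 14.8% of nuclei with ftz-f1 had Cyp18a1 and 7.69% of those without, a ratio of 1.92, where 1.57% of 1653 other genes reached a ratio of 2. Averaged over all draws the shares were 16.7% and 6.92%, a ratio of 2.41, and the ratio in the other direction was 1.82. In other single draws the ratio was 3.97 with 500 UMIs, 3.20 with 2000 UMIs and 1.33 with another draw of 1000. EcR with Eip75B had a ratio of 0.99 (background 1.33% for partners of EcR and 1.09% for those of Eip75B). No partner of br or Cyp18a1 among the 5 genes reached a ratio of 2, beside 7.08% and 4.05% of all genes. No nucleus of the draw held both br and Cyp18a1, each found in 27 nuclei, and the exact interval for 0 of 27 reaches 12.8%. The averaged shares were 2.66% of nuclei with br and 10.7% of those without.

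The genes whose counts ran most like a given gene were named where Pearson's r of log2(drawn UMIs + 1) was at least 0.3 over the 270 nuclei, out of 1653 genes found in at least 10% of nuclei. For ftz-f1 they were CG13315 (r 0.40), bun (0.37) and spri (0.35). For Cyp18a1 they were CG13315 (0.43), DOR (0.42), whose product is a coactivator of the ecdysone receptor, and foxo (0.41), a forkhead factor of insulin signalling. For br they were the neuronal RNA-binding protein gene fne (0.34), CanA-14F (0.32) and trv (0.30). No gene reached 0.3 for EcR or Eip75B. The r between ftz-f1 and Cyp18a1 was 0.31, and all other pairs of the 5 genes lay between -0.09 and 0.07. These values share their library and drawn depth and are a description. CG13315 (6227 against 230 CPM), bun (10498 against 1159 CPM), spri (1578 against 112 CPM), DOR (4134 against 509 CPM) and foxo (858 against 223 CPM) were higher in the 14 than in the 16 apolpp-rich nuclei. These genes were not left out of the clustering and were picked by likeness to ftz-f1 or Cyp18a1. Their differences between the 14 and 16 can therefore be made by the grouping and the choice.

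The wider pathway was read in the apolpp-rich cluster against all other nuclei, by the same 2-fold line, beside 7.74% of all genes higher and 23.4% lower. Of the hormone transport and inactivation genes with at least 20 UMIs, 2 of 3 were higher and none lower. Atet, which loads ecdysteroids into vesicles for release, was 4.82-fold higher (3.85 to 6.01) and E23 4.87-fold higher (3.51 to 6.71). The importer gene Oatp74D, which carries ecdysteroids into target cells, stood at a ratio of 0.93 to them (0.58 to 1.42). Of the synthesis genes, 2 of 3 were higher: phm, on 7 UMIs, by 4.70-fold (1.62 to 12.3), and Npc1a, for sterol trafficking, by 2.64-fold (1.67 to 4.03).

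Other nuclear receptor genes split into 3 higher and 3 lower of 10 (7.74% and 23.4% of all genes). Eip78C was 5.02-fold higher (3.95 to 6.35), Hnf4, a sensor of fatty acids, 3.89-fold (2.54 to 5.85) and Hr4 2.26-fold (1.96 to 2.59). svp had 0 UMIs in the cluster against 73.3 CPM elsewhere. Of the receptor cofactors 1 of 10 was higher, the EcR coactivator gene tai at 2.29-fold (1.72 to 3.01), and 2 were lower, E(bx) at 0.27 times and DopEcR at 0.41 times, shares near the 7.74% and 23.4% of all genes. DopEcR, a membrane receptor for dopamine and ecdysteroids, is in this list but is no cofactor of EcR.

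Other ecdysone-responsive genes did not move one way, with 4 higher and 5 lower of 16 (7.74% and 23.4% of all genes). vri was 5.50-fold higher (3.68 to 8.11), ImpL2, which encodes a secreted insulin-binding protein, 2.57-fold (2.14 to 3.06), and Kr-h1, on 7 UMIs, 4.15-fold (1.46 to 10.5). The cell death gene rpr was 2.71-fold higher (1.67 to 4.25). Among those lower, the ratio was 0.0725 for Eip63F-1 (0.00182 to 0.411) and 0.165 for ImpE1 (0.0445 to 0.427). Of the juvenile hormone genes 1 of 6 was higher (Kr-h1, counted in both lists) and 1 lower.

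Of 31 other cytochrome P450 genes, taken by symbol, 10 were higher and 4 lower (7.74% and 23.4% of all genes). The list also caught Cyp1, a cyclophilin gene, which was not called. Cyp309a2 was 25.2-fold (16.3 to 39.9), Cyp6d5 21.99-fold (15.9 to 30.8) and Cyp6a8 12.5-fold higher (8.61 to 18.2). Within the cluster Cyp6d5 and Cyp6a8 were higher in the 16, at 768 against 172 CPM and 419 against 120 CPM. Cyp309a2 leaned to the 14, where Cyp18a1 and Cyp304a1 were higher, but stayed under the 2-fold line. It was at 566 against 293 CPM (1.93-fold, 1.19 to 3.12). In all lists the median log2 difference ran from -0.46 (juvenile hormone) to 2.11 (transport and inactivation), beside -0.47 over all genes.

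By Cyp304a1 at 1000 UMIs, 15 of the 78 genes of all lists were at least 2-fold higher, or 19.2%, beside the 13.5% of all genes. Another 28 were at least 2-fold lower, or 35.9%, beside 44.8% of all genes. With the most UMIs among these, Ldh and hid had 0 against 48 and ImpE1 0 against 41. The higher genes included rpr (6 UMIs against 13, 5.20-fold, 1.62 to 14.7), tai (11 UMIs against 39, 3.18-fold, 1.47 to 6.33), Atet (10 against 39, 2.89-fold, 1.29 to 5.90) and Met, a juvenile hormone receptor gene (4 against 7, 6.44-fold, 1.38 to 25.3). For spo, Eip71CD and Hr38 the call rested on 1 UMI in the nuclei with Cyp304a1.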

How the data were processed

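The authors deposited a gene by nucleus matrix of whole-number UMI counts, not normalized; that they are UMI counts follows from the 10x Genomics platform per the labels. The build was dm3, per the submitters' processing notes. Aligner, counting program, strand setting and barcode filter: not given in the sources used here, so reads of overlapping genes may be mixed. No coordinates were used, as the gene table at hand is of another release. All 318 nuclei, with 318 distinct barcodes, had at least 200 genes and were kept. Marker and pathway lists were matched by symbol: 3 entries matched through an older symbol and 1, tal, was not found.

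Counts were analysed in python 3.11.15 with numpy 2.4.6, scipy 1.17.1, pandas 2.3.3 and scanpy 1.11.5. Clustering took natural logs of UMIs per 10000 a nucleus, without genes in under 3 nuclei, and used 2000 variable genes without the 10 genes, Cyp304a1 and pathway genes that are not markers, 20 principal components, 10 neighbours and Leiden at resolution 1 (igraph 0.11.9, seed 0). A cluster took the name of the marker list with the most members over 2-fold higher with at least 5 UMIs, if 3 or more passed and the next list had fewer. The names fat body-like for the 30 apolpp-rich nuclei and ring gland-like for the 14 were withheld after their values were seen. Thinning drew 1000 UMIs a nucleus without replacement. Calls used CPM + 10 at 2-fold among genes with at least 20 UMIs; folds in the text are plain CPM ratios. The 95% intervals are exact (Poisson, Clopper-Pearson, conditional binomial) and leave out variation between nuclei and embryos. Averages over all draws came from the hypergeometric distribution. No p-values were computed. The genes named are the 10 genes and Cyp304a1, up to 3 genes most alike in counts, up to 4 genes of each pathway list with the highest and lowest differences, and markers. Values of bun, DOR, foxo, CG13315, spri, rpr, fkh, sisA and the pathway genes in the 14 and 16 nuclei were added after their values were seen. The 10 genes and all lists were chosen with earlier results of these data known. Steps were tested on simulated counts.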

Additional observations from a re-analysis of the deposited data

How the results depend on the processing

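Calls of the scarce genes, and also of EcR and Eip75B, depended on the draw and its depth. The 2 genes at least 2-fold higher in nuclei with Cyp304a1 became 4 at 2000 UMIs a nucleus and 5 with another random draw. They became 4 within the shallowest of 3 depth groups and 4 within the apolpp-rich cluster, a grouping added after the values were seen. The genes added at 2000 UMIs were EcR (log2 difference 1.52) and Eip75B (1.02). EcR stood at 1.45 with 500 UMIs. Log2 differences by Cyp304a1 changed sign for Eip93F (0.59 at 2000 UMIs, 1.92 with another draw), Eip74EF (1.01 with another draw) and usp (0.32 from raw UMIs), each with 0 UMIs beside Cyp304a1 in the reported draw. Genes under the 2-fold line changed sign too: Hr3 (0.69 as reported) stood at -3.21 with 500 UMIs, -3.11 with 2000 UMIs and -3.21 in the deepest group, Eip75B (0.11) at -5.66 with 500 UMIs and EcR (0.67) at -0.92 outside the apolpp-rich cluster. Hr39 and Eip75B crossed 0 in several other settings. Pairs found together numbered 2 in place of 0 at 500 UMIs. The 5 genes found in at least 10% of nuclei became 3 at 500 UMIs, 8 at 2000 UMIs and 3 without the 5% of nuclei with the highest doublet scores. At resolution 1.5 the apolpp-rich name stayed with the 16 nuclei, so in it the log2 differences of ftz-f1 (-2.38), Eip93F (-0.065) and Cyp18a1 (-3.44) changed sign by construction. Without the deepest nucleus of each class those of usp in the oocyte-transcript cluster (-0.024) and of ftz-f1 in the salivary gland-like class (-0.38) changed sign. The count of 9 class calls ran from 7 to 10 over 10 other settings. Pathway calls by Cyp304a1 were 18 of 107 genes with at least 5 UMIs and 19 of 146 with no minimum. The cause of these changes was otherwise not tested. No paired analysis was possible because there is 1 RNA library and no result comes from a test. Depth limits the scarce genes most, with 11 drawn UMIs each for usp and Eip93F.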
